A study of Sus scrofa domesticus with 4 samples.

Results

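Solute carriers are membrane proteins that move sugars, amino acids, ions, metals, vitamins and other small molecules into and out of cells and organelles. They are described here in pig endometrium, the lining of the uterus, cultured with or without orexin B (OXB), a hypothalamic peptide also made in peripheral tissues. The members are all probes of the array whose RefSeq accession leads to a gene symbol that starts with SLC and a digit, or with SLCO, with the mitochondrial carriers of the SLC25 family left out. The rule gave 139 probes of 74 genes among 43603 probes, of which 6700 probes of 3029 genes carry a gene name. It left out 27 probes of 8 SLC25 genes. The rule itself uses no measured value, but it was chosen with earlier results of these data known. By substrate, the 74 genes fall into 12 for amino acids and peptides, 5 for glucose, 15 for ions, 10 for organic anions, 14 for metals, 4 for organic cations and amines, 6 for nucleotide sugars, 5 for nucleosides and vitamins, 2 for fatty acids and 1 other (SLC5A11). Classes were assigned by gene symbol, and the substrate of each protein was not examined. SLC9A3R1 and SLC9A3R2 are scaffold proteins that bind sodium/proton exchangers. They are members by symbol alone and are counted in the ion class.

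The arrays hold RNA from 4 gilts (Large White x Polish Landrace, aged 7 to 8 months and weighing 120 to 130 kg), all on days 15 to 16 of gestation. Slices of about 100 mg and 3 mm thickness from the middle of the uterine horns were cultured in 2 mL of medium for 2 h, then either left without treatment or given 10 nM OXB for another 24 h. Each of the 4 two-colour arrays set treated against untreated RNA, and the dyes were swapped between arrays: treated RNA carried Cy5 on arrays 1 and 3, and Cy3 on arrays 2 and 4. Both groups were pregnant, both were cultured, and the labels name duplicate cultures in 4 separate experiments without tying an animal to an array. Tissue taken straight from the animal was not analysed here.

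In early pregnancy the porcine endometrium feeds the elongating conceptus through its secretions, since the placenta is not yet formed. Glucose passes into epithelial cells by sodium-coupled carriers of the SLC5 family and by facilitative carriers of the SLC2 family. Amino acids, among them arginine, leucine and glutamine, are moved by the SLC1, SLC7 and SLC38 families, and several SLC7 carriers work only when joined to a heavy chain of the SLC3 family. The carriers of zinc divide into the SLC30 family, which lowers zinc in the cytosol, and the SLC39 family, which raises it.

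Detection of the carriers differed between the dyes. Between 30.2% and 37.4% of the member probes were well above background in Cy3, the scanner software's own flag. In Cy5 the share was 88.5% to 93.5% on arrays 1, 3 and 4 and 57.6% on array 2. The same gap held for all spots of the array, with 27.8% to 36.2% in Cy3, 82.4% to 86.7% in Cy5 on arrays 1, 3 and 4 and 46.8% in Cy5 on array 2. Array 2 was also the only array on its slide and the only one scanned on its day. Epithelial cells were represented in the tissue: all 6 epithelial marker genes with a named probe were above background in all 8 channels. Of the stromal markers, DCN and LUM were above background in all 8 channels too. So were 3 of 3 endothelial, 3 of 3 smooth muscle, 3 of 4 macrophage and myeloid and 3 of 5 trophoblast markers with a named probe. For T and NK cells it was 1 of 5, and for B and plasma cells 0 of 2. The part of each cell type in the carriers' RNA was not tested.

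A probe was tested when the scanner flagged it well above background in every treated channel, or in every untreated channel. This held for 47 of the 139 member probes (33.8%), close to the 31.6% of all probes, and for 33 of the 74 member genes (44.6%), against 1637 of 3029 named genes (54.0%). Of these 33 genes, 25 had a probe above background in all 8 channels, and 28 had one above background in the untreated channel of all 4 arrays. Of the genes that were not tested, 29 were above background in Cy5 channels alone, 9 reached it in some Cy3 channel and 3 reached it in none. The anion exchanger SLC26A4 and the organic anion carrier SLCO1A2 were among the last.

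The classes differed in how many of their genes could be followed. In the amino acid class 7 of 12 genes were tested, in the metal class 8 of 14, in the nucleotide sugar class 4 of 6 and in the organic cation and amine class 3 of 4. Both fatty acid carriers were tested. In the ion class only 3 of 15 were tested, the scaffold SLC9A3R1 among them, and in the organic anion class only 2 of 10. Of the 5 glucose carriers 2 were tested. SLC2A4, the insulin-responsive facilitative carrier, has 3 probes, and none of them was above background in any Cy3 channel. SLC2A2, the facilitative carrier of liver and pancreatic islets, was above background in 3 Cy5 channels and 0 Cy3 channels. SLC5A10, a sodium-coupled carrier of the glucose carrier family, had a probe above background in 4 Cy5 and 2 Cy3 channels.

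Among the other carriers that could not be tested were the peptide transporters SLC15A1 and SLC15A2, the glutamate transporter SLC1A3 and the cationic amino acid carriers SLC7A3 and SLC7A9. SLCO2A1, which takes up prostaglandins, had 1 probe above background in 4 Cy5 and 0 Cy3 channels and another in 3 Cy5 channels and 1 Cy3 channel. The copper carriers SLC31A1 and SLC31A2, the zinc carrier SLC30A2 and the phosphate carriers SLC34A1 and SLC34A2 were each above background in 3 Cy5 and 0 Cy3 channels. The folate carrier SLC46A1 was above background in 4 Cy5 and 2 Cy3 channels. No probe was named here for SLC2A1, SLC2A3, SLC3A2, SLC1A5, SLC38A2 or SLC40A1, and these carriers were not analysed here.

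**Figure D1:**
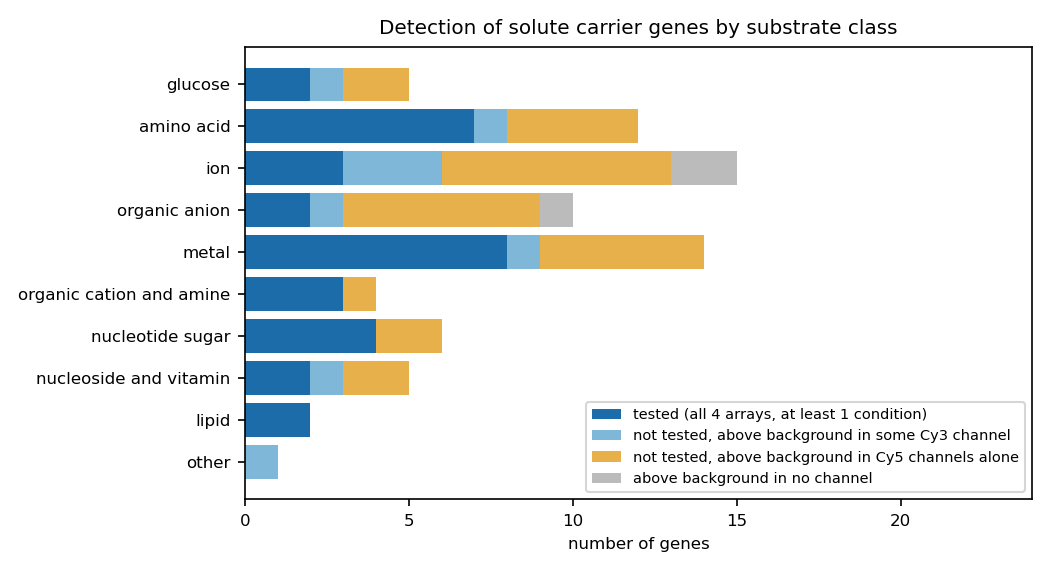
Number of solute carrier genes (horizontal axis) in each substrate class, divided by detection: tested, not tested but above background in some Cy3 channel, above background in Cy5 channels alone, or in no channel. The ion class holds 15 genes of which 3 were tested, and the amino acid class 12 of which 7 were tested.

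Signals in the untreated channel give the abundance in untreated endometrium. They are log2 values after loess within and Aquantile scaling between arrays. Each probe binds with its own strength, so a class is given as the range that the brightest tested probes of its genes cover. The order of genes within it says nothing about their RNA. Over the 11 genes with several tested probes, the levels of 1 gene's probes spread by a median of 0.52. The widest were SLC39A7 (9.23 to 12.86) and SLC7A7 (10.01 to 12.39). Across all tested probes the 5th to 95th percentiles ran from 8.81 to 14.77, with a median of 10.46. The 33 member genes had a median of 10.04. The untreated level lay between 9.62 and 11.72 in the glucose class and between 9.20 and 12.80 in the amino acid class. It lay between 9.29 and 12.30 in the ion class and between 9.25 and 10.07 in the organic anion class. The 12.30 belongs to the scaffold SLC9A3R1, and the ion carriers SLC12A4 and SLC4A4 stood at 9.29 and 9.63. Metal carriers covered 9.15 to 12.86, nucleotide sugar carriers 9.08 to 13.00, organic cation and amine carriers 9.54 to 14.11, and nucleoside and vitamin carriers 10.81 to 12.59. The fatty acid carriers stood at 8.97 and 9.29, near the lower end of what was tested.

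The spread of a gene's own level over the 4 untreated samples varied widely. SLC30A3, a zinc carrier of intracellular vesicles, stood at 9.30 ± 0.15 (SD, n = 4), and SLC35F5 at 9.08 ± 0.17. Both probes are dim, below the 25th percentile of all tested probes (9.51). SLC30A3 was above background in 3 of its 4 untreated channels. The SLC35F5 probe was above background on all 4 arrays in 1 condition only. Whether low signal narrowed these spreads was not tested. SLC7A1, the main carrier of arginine and lysine, stood at 12.80 ± 0.38. Its other probe was above background in no untreated channel and was not tested. SLC7A7, the light chain of an arginine and leucine exchanger, stood at 12.39 ± 0.27 for its brightest probe. SLC44A4, a choline transporter-like protein of epithelia, stood at 14.11 ± 0.71. SLC3A1, the heavy chain of the cystine and dibasic amino acid transporter, stood at 10.63 ± 1.24, and the bicarbonate carrier SLC4A4 at 9.63 ± 0.98. Each sample is set against the others only after scaling, so these spreads include differences between arrays and dyes as well as between animals. Untreated RNA carried Cy3 on arrays 1 and 3, and Cy5 on arrays 2 and 4. For SLC4A4 the untreated mean was 10.4 in Cy3 and 8.8 in Cy5.

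**Figure D2:**
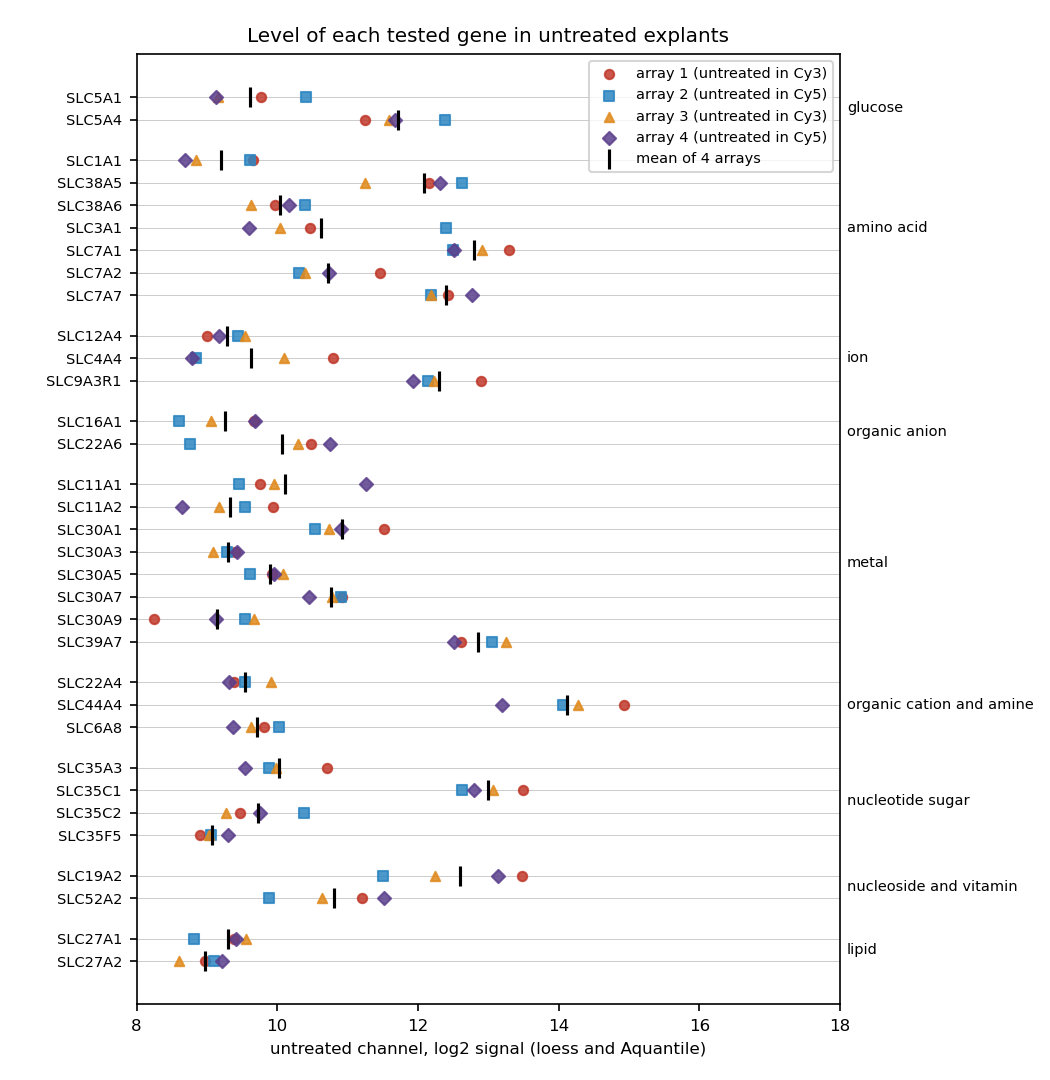
Level of each tested solute carrier gene in untreated explants (horizontal axis, log2 signal after loess and Aquantile) on each of the 4 arrays, grouped by substrate class, with the mean as a black bar. Probes bind with different strength, so positions compare samples within a gene. SLC3A1 and SLC4A4 have the widest spread over samples (SD 1.24 and 0.98), and the levels of SLC4A4 divide by the dye of the untreated RNA.

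The main comparison asked whether OXB altered the carriers' RNA in the endometrium at this stage. No solute carrier passed the adjusted test. Of the 47 member probes 0 passed in limma's fit with Benjamini-Hochberg adjustment over 13782 probes, where 0.00% of all tested probes passed, and the smallest adjusted p among the members was 0.999. Without adjustment 1 of 47 member probes (2.13%) had p under 0.05, against 3.59% of all tested probes. In the explants fewer cells of a type and less RNA per cell cannot be told apart.

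Each gene is followed by its brightest tested probe, and a positive log2 ratio means more RNA with OXB. The ratio was above 0 in 14 of the 33 genes and below 0 in 19, with a median of -0.03. All tested named genes had a median of -0.02 and 43.9% of them were above 0, against 42.4% of the carriers. With the scanner's own log ratio in place of loess, 10 carriers stood above 0 and 23 below. For 9 of the 33 genes the brightest probe was above background on all 4 arrays in 1 condition only, and among the 25 genes tested on probes above background in both conditions 11 stood above 0 and 14 below. The 95% interval included 0 for all 33 genes, and the median distance from the ratio to either bound was 0.46. The SE of the ratio, moderated over all probes, ran from 0.17 to 0.38 between genes. The values do not show that the carriers stayed the same.

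Same direction on all 4 arrays was seen in 5 of 47 member probes (10.6%), against 7.30% of all tested probes. They belonged to SLC5A4, SLC38A6, SLC30A1, SLC35F5 and SLC52A2. For SLC5A4, SLC38A6 and SLC30A1 it was the brightest probe of the gene.

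Of the glucose carriers, SLC5A4, a sodium-coupled carrier that moves glucose with low affinity in the pig, had log2 ratios of 0.59, 0.19, 0.19 and 0.12 on arrays 1 to 4. Array 1 stood highest, and all 4 lay above 0. The fitted ratio was 0.27 ± 0.18 (SE, n = 4; 95% interval -0.14 to 0.69), with an adjusted p of 0.999 in limma's fit. SLC5A1, the high-affinity sodium-glucose carrier of the gut and uterine epithelium, had ratios of 0.25, -0.64, 0.15 and 0.16. Array 2 was low and the other arrays were above 0, so that the fit of -0.02 ± 0.20 averaged over opposite signs, and it was 0.18 without array 2 and -0.22 without array 4. Its other tested probe repeated that order, with 0.67, -0.92, 0.44 and 0.51 and a fit of 0.17 ± 0.26. Both probes of SLC5A1 were above background in all 4 treated channels but not in all 4 untreated channels (3 and 2 of them).

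All 7 tested genes of the amino acid class stood below 0, with a class median of -0.13. The 95% interval of each of the 7 included 0, and the direction was not shared by the arrays: the class median was -0.23, -0.18, -0.02 and 0.12 on arrays 1 to 4. Without array 2, 4 of the 7 genes stood below 0, and with each array centred on its median in place of loess 5 did. The median over all member genes on the same arrays was -0.01, -0.18, -0.02 and 0.11.

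The most even member of the class was SLC38A6, of the family that carries glutamine and other neutral amino acids. Its ratios were -0.39, -0.18, -0.21 and -0.12, with a fit of -0.23 ± 0.17 (SE, n = 4; 95% interval -0.63 to 0.18). All 4 arrays lay below 0, within a SD of 0.12. The gene's other probes were not tested. They were above background in no Cy3 channel, and each had ratios on both sides of 0. SLC38A5, a glutamine carrier that also exchanges protons, had ratios of -0.30, -0.04, 0.37 and -0.61 and a fit of -0.15 ± 0.20, with array 3 above 0 and array 4 lowest. SLC1A1, which takes up glutamate and aspartate, ran from -0.96 on array 2 to 0.53 on array 4, with -0.23 and 0.11 on arrays 1 and 3. Its fit of -0.13 ± 0.26 became 0.24 without array 2 and -0.51 without array 4, and 1 of its 4 untreated channels was not above background.

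Carriers of arginine and other cationic amino acids were represented by SLC7A1, SLC7A2, SLC7A7 and the heavy chain SLC3A1. SLC7A1 had ratios of -0.11, -0.33, -0.08 and 0.19 and a fit of -0.08 ± 0.18. SLC3A1 had ratios of -0.01, -0.54, -0.02 and 0.12 and a fit of -0.11 ± 0.19. In both, array 2 was the lowest and array 4 the only one above 0. The brightest probe of SLC7A7 had ratios of 0.25, -0.09, 0.26 and -0.68, and its 3 tested probes fitted between -0.06 and 0.06.

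SLC7A2, a cationic amino acid carrier that supplies arginine to nitric oxide synthesis in activated macrophages, had the widest swing of the class. Its ratios were -1.48, 0.61, -0.93 and 1.06 on arrays 1 to 4. The arrays with treated RNA in Cy5 were low and those with treated RNA in Cy3 were high, so the swing went with the dye orientation. The fit gave a treatment ratio of -0.18 ± 0.19 and a dye term of -1.02. By the dye given in the labels, this probe read lower in Cy5 than in Cy3 whichever RNA was in it.

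The ion class held 3 tested genes with a median of 0.04, which is the ratio of the scaffold SLC9A3R1. SLC4A4, the sodium bicarbonate cotransporter of many secretory epithelia, had ratios of -0.89, 0.31, -1.05 and 0.45. As in SLC7A2, the arrays divided by dye orientation, with a dye term of -0.67 and a treatment ratio of -0.29 ± 0.17 (SE, n = 4; 95% interval -0.70 to 0.11). SLC12A4, a potassium chloride cotransporter that serves cell volume, had ratios of 0.76, -0.25, 0.19 and 0.26 and a fit of 0.24 ± 0.20, with array 2 alone below 0. The scaffold SLC9A3R1 stood at 0.04 ± 0.18.

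Both tested organic anion carriers also divided by dye. SLC16A1, which moves lactate and pyruvate with protons, had ratios of 0.39, -0.23, 0.58 and -0.56. SLC22A6, best known for the uptake of organic anions in kidney, had ratios of 0.34, -0.37, 0.28 and -0.51. Both genes were above 0 on the arrays with treated RNA in Cy5 and below 0 on the others. Their treatment ratios were 0.05 ± 0.18 and -0.06 ± 0.17, with dye terms of 0.44 and 0.37. Each was above background in 4 untreated and 3 treated channels.

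The metal class had 8 tested genes, 3 above 0 and 5 below, with a median of -0.14. SLC30A1, which exports zinc across the plasma membrane and whose RNA follows cellular zinc through the factor MTF1, had ratios of -0.68, -0.26, -0.26 and -0.17. All 4 lay below 0, array 1 the lowest, with a fit of -0.34 ± 0.18 (SE, n = 4; 95% interval -0.76 to 0.08) and an adjusted p of 0.999 in limma's fit. Its second tested probe fitted at -0.44 ± 0.19 but had 0.27 on array 4. SLC39A7, which releases zinc from the endoplasmic reticulum, had ratios of -0.84, -0.15, -0.97 and 0.74 for its brightest probe. The fit was -0.31 ± 0.21 with a dye term of -0.60. Its other tested probes fitted at -0.10 and -0.07, and the brightest probe stood at -0.08 without array 2 and at -0.53 without array 4.

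The remaining zinc carriers stood closer to 0. SLC30A3 fitted at -0.14 ± 0.18 and SLC30A9, a zinc carrier of mitochondria, at 0.08 ± 0.25. Each of these was above background in 3 of its 4 untreated channels. SLC30A5 and SLC30A7, which load zinc into the secretory pathway, fitted at 0.07 ± 0.22 and -0.13 ± 0.17. SLC11A2, which takes up ferrous iron, stood at -0.17 ± 0.18. SLC11A1, the metal carrier of macrophage phagosomes, had ratios of 0.42, 0.92, 0.71 and -0.57 for its brightest probe and of -0.12, 0.07, -0.17 and -0.89 for the other tested probe. Array 4 was the lowest for both probes, but the fits had opposite signs, at 0.37 ± 0.26 and -0.28 ± 0.21. The brightest probe stood at -0.00 without array 2 and at 0.74 without array 4.

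Of the macrophage and myeloid markers 4 of 7 were tested (AIF1, CD14, CD163 and CD86). Their median ratio was -0.25, -0.17, -0.79 and -0.64 on arrays 1 to 4, and their mean level ran from 10.0 to 11.2 in the untreated and from 9.72 to 10.6 in the treated channels. CD163 fitted at 0.18, and AIF1, CD14 and CD86 at -0.59, -0.42 and -0.68. Whether the content of these cells moved SLC11A1 was not tested.

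Carriers of nucleotide sugars bring the building blocks of glycans into the Golgi apparatus. SLC35C1, which carries GDP-fucose, had ratios of -0.13, -0.37, -0.61 and 0.26 and a fit of -0.21 ± 0.20. SLC35A3, which carries UDP-N-acetylglucosamine, stood at 0.03 ± 0.23, with -0.04 for its other probe, and SLC35C2 at 0.02 ± 0.20. SLC35F5, placed in this class by its symbol, stood at 0.23 ± 0.23 for its brightest probe, with array 3 high at 0.90. Its other tested probe had 0.32, 0.50, 0.14 and 0.12, all above 0, and fitted at 0.27 ± 0.18.

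Of the organic cation and amine carriers, SLC44A4 had ratios of -0.14, -0.21, -0.44 and 0.51 and a fit of -0.07 ± 0.20, and its 3 tested probes fitted between -0.08 and 0.02. Array 4 was the highest for all 3. The epithelial markers (6 of 9 tested: CDH1, CLDN3, CLDN4, CLDN7, EPCAM and KRT8) had median ratios of -0.69, -0.51, -0.24 and 0.52 on the same arrays, also highest on array 4. CLDN7 differed, with 0.67, 0.18, 0.19 and 0.20, while the other markers listed were each highest on array 4. KRT8 also stood at 0.71 on array 1. The mean level of the 6 markers ran from 12.9 to 13.8 in the untreated and from 12.6 to 13.5 in the treated channels. The part of epithelial content in the ratios of SLC44A4 was not tested. The creatine carrier SLC6A8 stood at -0.03 ± 0.24, from -0.86 on array 2 to 0.65 on array 1, and SLC22A4, a carrier of ergothioneine, at 0.04 ± 0.18.

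The vitamin carriers are SLC19A2, for thiamine, and SLC52A2, for riboflavin. SLC19A2 had ratios of -1.18, 0.41, 0.61 and 0.21, so that array 1 lay opposite to the other arrays, and a fit of 0.01 ± 0.29. The brightest probe of SLC52A2 had 0.47, 0.03, 0.22 and -0.16 and a fit of 0.14 ± 0.17. A second probe of this gene had 0.75, 2.31, 0.32 and 0.14, all above 0, with a fit of 0.88 ± 0.34 (SE, n = 4; 95% interval 0.08 to 1.68). That was the single member probe with an unadjusted p under 0.05, and its adjusted p in limma's fit was 0.999. Array 2 carried most of it, and on that array the brightest probe of the same gene stood at 0.03.

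The fatty acid carriers had the highest single ratio of all. SLC27A2, which takes up and activates long chain fatty acids, had ratios of 0.17, 2.56, 0.13 and -0.02 for its brightest probe. Array 2 stood alone, and the fit of 0.71 ± 0.38 (SE, n = 4; 95% interval -0.19 to 1.61) was 0.06 without it and 1.35 without array 4. This probe was above background in 4 treated but in only 2 untreated channels. The gene's other 2 probes were not tested and were above background in 0 Cy3 channels, the dye of the treated RNA on array 2. SLC27A1, a long chain fatty acid carrier, had ratios of 0.51, -0.19, -0.16 and -0.24 and a fit of -0.02 ± 0.19, with array 1 apart from the others.

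**Figure D3:**
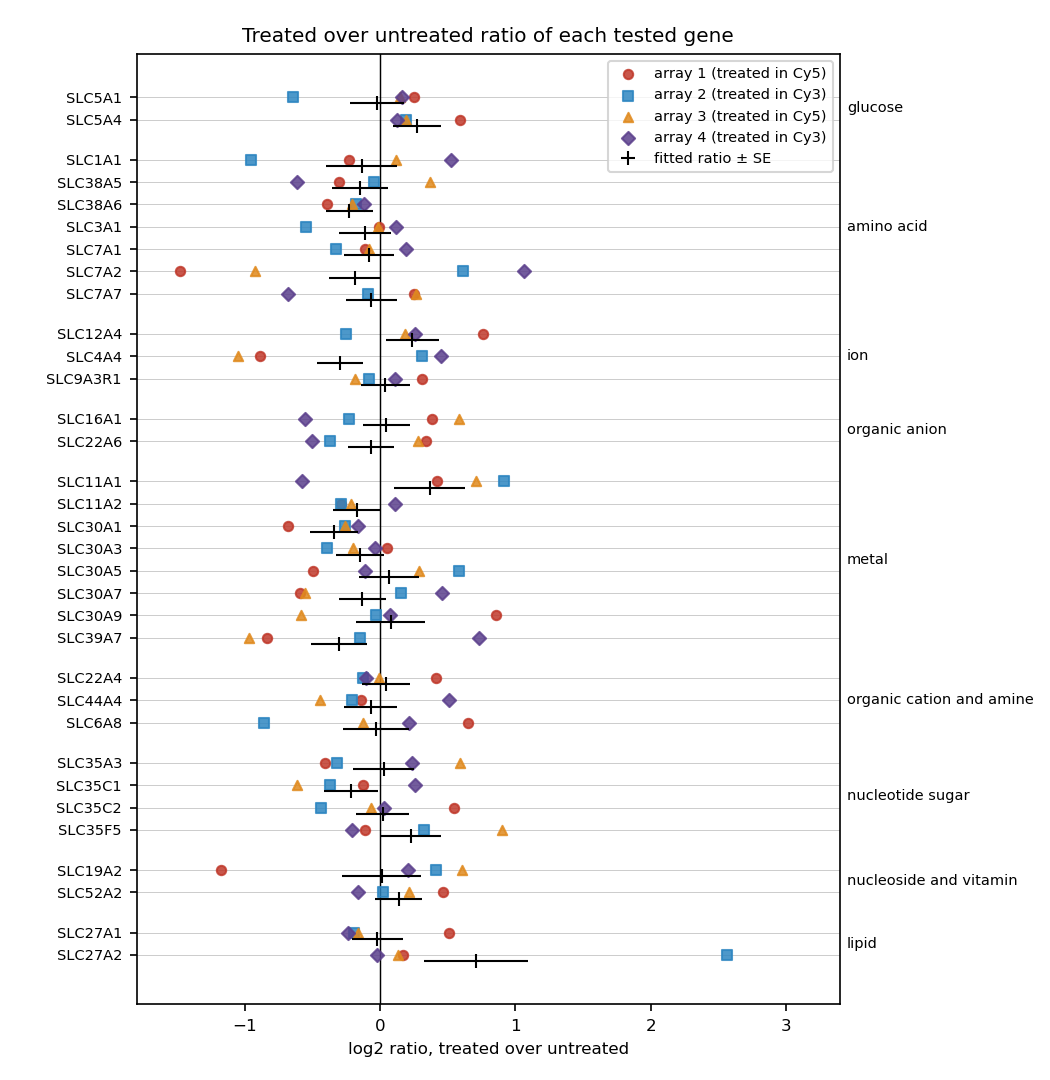
Log2 ratio of treated over untreated RNA (horizontal axis) for the brightest tested probe of each solute carrier gene, with 1 symbol for each array and, below each row of symbols, the fitted ratio with its SE in black. Circles and triangles are arrays with treated RNA in Cy5, squares and diamonds those with treated RNA in Cy3. SLC7A2, SLC4A4 and SLC16A1 divide by dye, and SLC27A2 has 1 array at 2.56.

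The arrays allow each ratio to be split into a treatment term and a dye term, because each orientation was used on 2 arrays. In 18 of the 33 carriers (54.5%) the dye term was larger than the treatment ratio, against 64.1% of all tested named genes. The median size of the dye term was 0.20 in the carriers and 0.22 in all tested named genes. Among the brightest probes, a dye term beyond 0.5 in either direction was seen in SLC7A2, SLC4A4, SLC39A7 and SLC27A2. Another tested probe of SLC7A7 had a dye term of 0.61. In SLC27A2 the dye term rests on array 2 alone, since Cy5 over Cy3 was 0.17, -2.56, 0.13 and 0.02 on arrays 1 to 4. The treatment and dye terms rest on the dye given for each array in the labels.

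A protocol sentence common to the 4 arrays could mean instead that treated RNA carried Cy5 on each of them. Under that reading SLC7A2 had a ratio of -1.02 and SLC4A4 of -0.67, with adjusted p-values of 0.256 and 0.258 in limma's fit, and 12 of the 33 carriers changed sign. The number of member probes with unadjusted p under 0.05 was then 7 of 47 (14.9%), against 15.6% of all tested probes, and none passed adjustment. The authors' deposited value table turns arrays 2 and 4 the same way as the dye labels used here.

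**Figure D4:**
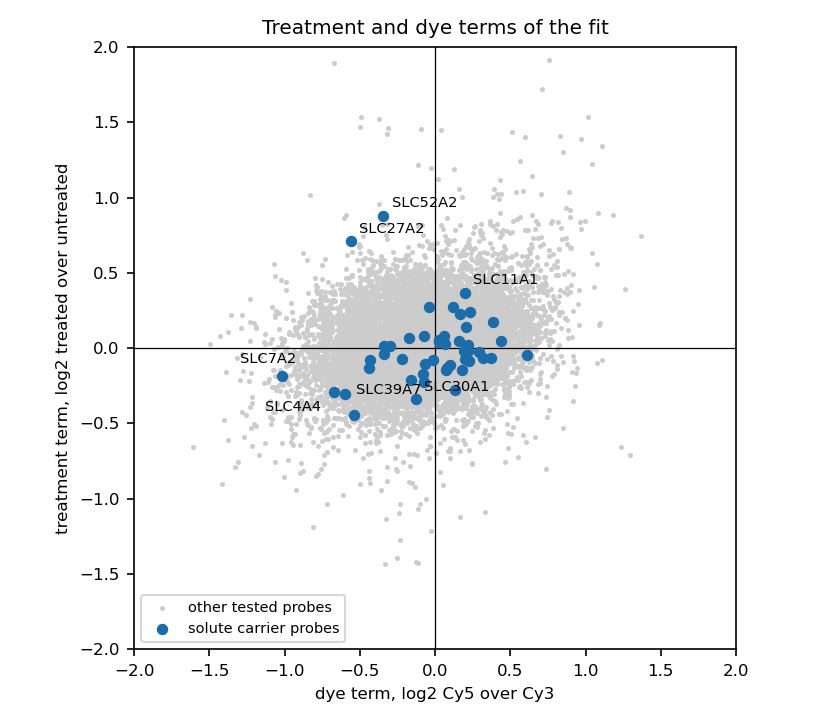
Dye term (horizontal axis, log2 Cy5 over Cy3) and treatment term (vertical axis, log2 treated over untreated) of each tested probe, solute carriers in blue and all other tested probes in grey. SLC7A2 lies farthest from 0 along the dye axis (-1.02) among the carriers, and a probe of SLC52A2 lies highest along the treatment axis (0.88).

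Several probes of 1 gene give a check on these ratios that needs no further sample. Of the 33 genes 11 had more than 1 tested probe, and their fitted ratios spread over a median of 0.10. In 5 of the 11 (SLC5A1, SLC7A7, SLC11A1, SLC35A3 and SLC44A4) the probes differed in sign. The probes of SLC30A1 stood on the same side of 0, as did those of SLC3A1, SLC30A5, SLC35F5, SLC39A7 and SLC52A2. Probes of a gene share the same 4 RNA pairs and are not replicates of the treatment.

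The level of a carrier also differed between arrays. Taking the mean of both channels, the range of the log2 level over the 4 arrays had a median of 0.93 in the carriers, against 0.77 in all tested named genes. It reached 1 or more in 13 of the 33 (39.4%), against 30.6% of all tested named genes.

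SLC3A1 had the widest range at 2.47. Its untreated levels were 10.47, 12.40, 10.04 and 9.60 on arrays 1 to 4 and its treated levels 10.46, 11.86, 10.02 and 9.72. Array 2 stood above the others in both channels, and the second tested probe gave 10.09, 12.02, 9.46 and 9.29 in the untreated channel. SLC22A6 had a range of 2.07, with untreated levels of 10.47, 8.76, 10.30 and 10.74 and array 2 the lowest. SLC27A2 followed with 1.71, SLC52A2 with 1.55, SLC19A2 with 1.52 and SLC44A4 with 1.40. In SLC44A4 the untreated levels were 14.93, 14.06, 14.28 and 13.20, with array 4 the lowest, as it was for the untreated mean level of the epithelial markers. Array 2 differs from the other arrays in slide and scan day, so for its values the animal, the slide and the scan cannot be told apart.

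**Figure D5:**
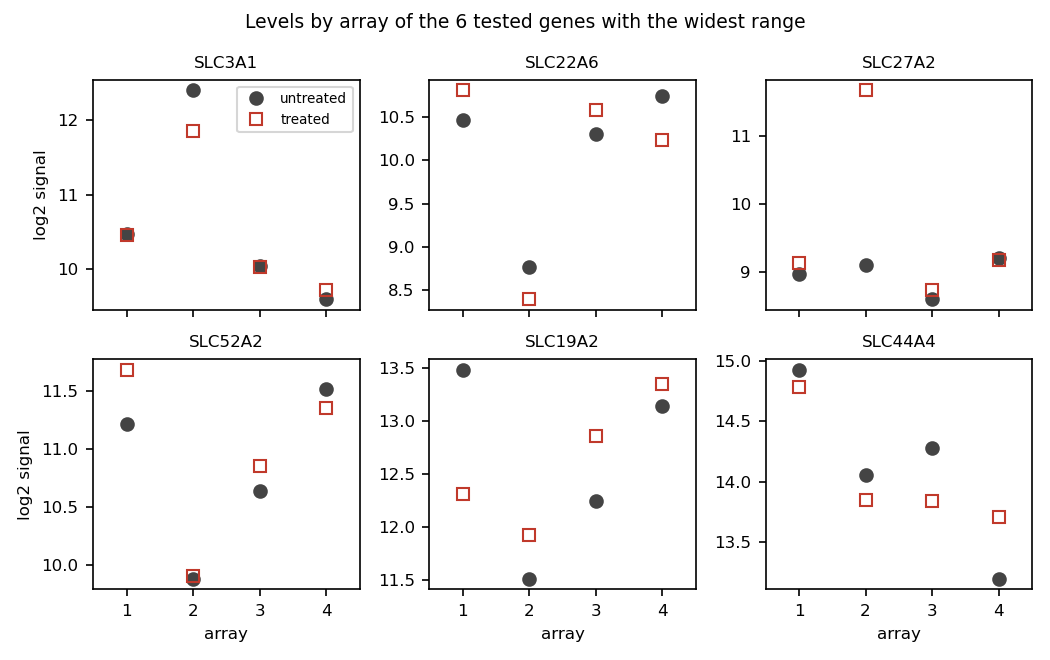
Level (vertical axis, log2 signal) on each of the 4 arrays (horizontal axis) of the 6 tested solute carrier genes with the widest range between arrays, in untreated (filled circles) and treated (open squares) explants. Each panel has its own vertical scale. SLC3A1 stands highest on array 2 in both channels, and SLC22A6 stands lowest there in both.

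Other transport genes give the surroundings of the carriers: ion pumps, ABC transporters, aquaporins and carrier partners. Of 27 such genes with a named probe, 14 were tested, 5 of them above 0 and 9 below, with a median of -0.03 and 0 past adjustment. ABCG2, an efflux pump for drugs and steroid conjugates, stood highest at 0.42 ± 0.19. ATP1B1, a beta subunit of the sodium pump that drives sodium-coupled carriers such as SLC5A1 and SLC5A4, stood at 0.08 ± 0.26 on the 3 arrays that gave it a value (0.43, -0.65 and 0.12 on arrays 1, 2 and 4), since its spot on array 3 was an outlier. BSG, the chaperone that brings SLC16A1 to the cell surface, stood at -0.12 ± 0.22. ABCF1, a relative of ABC transporters that acts in translation, stood lowest at -0.27 ± 0.26.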

How the data were processed

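The deposited scanner files give the median spot intensity and local background of each dye and a log10 ratio of Cy5 over Cy3, per the file headers, which name design 026440 and the software Agilent Feature Extraction 10.7.3.1. The authors' value table holds log2 ratios, which the scanner values show to be treated over untreated and not centred. Labelled cRNA (825 ng of each dye, from RNA with an integrity number of 8 to 10) was hybridised, per the labels' protocols. Genome build: not given in the sources used here.

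From the intensities, limma 3.58.1 in R 4.3.3 corrected background (normexp, offset 50, on the median signal because the planned mean signal was not among the columns used) and normalised each array by loess. Control and outlier spots had weight 0, outlier spots were then left out, and spots of a probe were averaged. For each probe lmFit and eBayes fitted a treatment and a dye term, with 2 residual and 5.09 prior degrees of freedom. P-values are two-sided and adjusted over all 13782 tested probes, at a threshold of 0.05. No member probe lacked a value or was saturated. Levels used Aquantile. Of a gene's tested probes the brightest stands for the gene, and all tested members are given. Probes were named through RefSeq accessions (Sscrofa11.1 gene table, no coordinates used). The arrays are the replicates. P-values measure the spread between them that is left after the dye term, moderated over all tested probes. The number of arrays limits the precision. Members and lists were chosen with earlier results of these data known. The fit was tested on simulated data with normal noise, scaled to each probe's residual spread in the real fit. That spread rests on 2 residual degrees of freedom, so recovery in the real data can differ. Of 100 probes changed by a log2 ratio of 2 in either direction, 63 passed adjustment. Of 100 changed by a log2 ratio of 1, 1 passed. Figures were drawn with matplotlib 3.10.9.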

Additional observations from a re-analysis of the deposited data

Results flagged for a closer look

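Each tested gene's ratio and untreated level, 66 values over the 4 arrays in all, were examined for an array standing apart from the other arrays by Dixon's test. Chance alone gives about 1 in 20 such cases, and 4 were found, all of them ratios. SLC27A2 had 2.56 on array 2, with the other arrays between -0.02 and 0.17. SLC5A1 had -0.64 on array 2, with the others between 0.15 and 0.25. SLC5A4 had 0.59 on array 1, with the others between 0.12 and 0.19. SLC27A1 had 0.51 on array 1, with the others between -0.24 and -0.16.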

How the results depend on the processing

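Under all 13 alternatives 0 solute carriers passed adjustment. Without array 2, 15 of all tested probes passed, none of them a carrier. The median ratio of the tested amino acid carriers moved from -0.13 to 0.079 when all arrays were read as treated RNA in Cy5. It stayed between -0.24 and -0.06 when an array was left out. The median over all carriers lay between -0.10 and -0.00 when an array was left out. Single genes that moved beyond their spread over arrays under the reading with treated RNA in Cy5 throughout were SLC22A6 (0.37), SLC27A2 (-0.56), SLC30A3 (0.07) and SLC38A6 (-0.08), and with the mean of a gene's probes SLC52A2 (0.51). The cause was not tested. The number of genes changing sign was 6 with median centring, 6 with the scanner's log ratio, 0 without background subtraction and 4 to 10 without an array. The count of 28 genes above background in untreated tissue was 35 with 3 of 4 channels required and 28 to 34 without an array. The median untreated level of the 33 tested genes, 10.04, was 10.26 in Cy3 alone and 10.07 in Cy5 alone. Each array already pairs treated with untreated RNA, and the arrays form 1 group of such ratios, so no further pairing was possible. Array 2 is alone on its slide and scan day, so a block for either takes up its value whole and leaves the fit without array 2. Signal over background in Cy3 limits which carriers could be followed.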
